A study of Homo sapiens with 10 samples.

Results

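HEK293T cells, a transformed human embryonic kidney line, were sequenced after overexpression of either of 2 related kinases, and the response common to both was taken by setting all kinase libraries against all controls. The comparison used every one of the 10 libraries of the series: 6 kinase libraries, 3 with BRSK1 and 3 with BRSK2 overexpressed for 24 h, against 4 control libraries. The controls were 2 libraries with hcRED, a far-red fluorescent protein, overexpressed for the same 24 h, and 2 mock libraries (Mock), whose handling the labels do not describe further. All 10 came from HEK293T cells, and 3 µg of RNA was sent for sequencing from each sample. Neither the labels nor the files describe the vector, its promoter or the share of cells that took it up, and a group of this kind measures a level of kinase far above that of the cells themselves. The counts of BRSK1 and BRSK2 were left out of the comparison, and 16134 of the 58676 genes counted passed a filter on low counts and were tested.

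BRSK1 and BRSK2, also known as the SAD kinases, are serine/threonine kinases of the AMPK-related family that the tumour suppressor kinase LKB1 activates. They are best known in neurons, where they act in axon specification and at the presynaptic terminal and phosphorylate microtubule-associated proteins such as tau. The series title places them upstream of NRF2, the transcription factor that drives antioxidant and detoxification genes when its inhibitor KEAP1 releases it, and names them as negative regulators of it.

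The libraries held between 16516116 and 24304302 counts. BRSK1 transcripts took between 4.715% and 6.961% of the counts in the BRSK1 libraries, BRSK2 transcripts between 6.993% and 10.36% in the BRSK2 libraries, and each was at most 0.010% in every other library. Whether the samples of a group were cultured separately is not said in the labels. The p-values therefore rest on how much these samples varied, and that variation may be technical only. All 8 transcripts used to check for the HEK293 line were detected in each library. UMOD, a marker of the mature kidney tubule, had 0 counts in each library. BRSK1 replicate 1 stood apart in 4 transcripts of a 6-gene keratinocyte list, with 618 counts of KRT5, 691 of KRT14, 586 of KRT6A and 120 of SFN, where the highest of the other libraries held 99, 191, 93 and 55. The summed level of that list lay between 93.8 and 203 CPM in the kinase libraries and between 105 and 121 in the controls. These sums were scaled by library totals alone, with BRSK1 and BRSK2 counted in, which lowers them in the kinase libraries. Elsewhere, levels in CPM are counts scaled to a common library size with TMM factors. TP63, the defining transcription factor of the list, had at most 2 counts anywhere. In bulk RNA, fewer cells of a type and less RNA per cell cannot be told apart. Without that library EPHX1 lost its call and SOCS3 and DDIT3 gained one, as given beside each.

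Either kinase changed 1251 genes against the controls, 7.75% of those tested, by edgeR's quasi-likelihood F test at a Benjamini-Hochberg adjusted p under 0.05. Of these 738 were higher (4.57% of genes tested) and 513 lower (3.18%). The changes were small: the median log2 fold change was 0.38 among the genes called higher and -0.27 among those called lower, and 60 rose and 8 fell by more than 2-fold. The levels of the 6 kinase libraries lay entirely above or below those of the 4 controls for 1179 genes, called or not (7.31%), and 760 genes were both called and fully apart, 469 higher and 291 lower. Protein-coding genes made up 95.1% of the genes called higher and 95.3% of those called lower, against 82.6% of all genes tested. The genes called lower were also the more abundant, with a median of 62.4 CPM against 28.5 among those called higher and 19.8 among all.

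The number of calls depended on which libraries were present. It rose to 1927 without BRSK2 replicate 1, and fell to 795 without BRSK2 replicate 2, 647 without BRSK2 replicate 3 and 770 without BRSK1 replicate 3. Among the controls, it was 669 without hcRED replicate 1, 663 without Mock replicate 2 and 630 without Mock replicate 3. With 1 control group in place of both, 216 genes passed against hcRED alone and 868 against Mock alone. Each of these also leaves only 2 control libraries, so for the fall from the full comparison the choice of control and the smaller arm cannot be told apart. The arms were of the same size in both, and the source of the gap between 216 and 868 was not tested. Scaling by library totals alone called 1059 genes higher and 259 lower, since it moved the median of all genes to 0.04 on the log2 scale. Between the control groups themselves, 5 genes differed (0.031% of those tested), 1 higher and 4 lower in hcRED, and none of these was called for the kinases. The median difference of hcRED from Mock was nonetheless 0.07 among genes called higher with the kinases and -0.05 among those called lower.

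**Figure D1:**
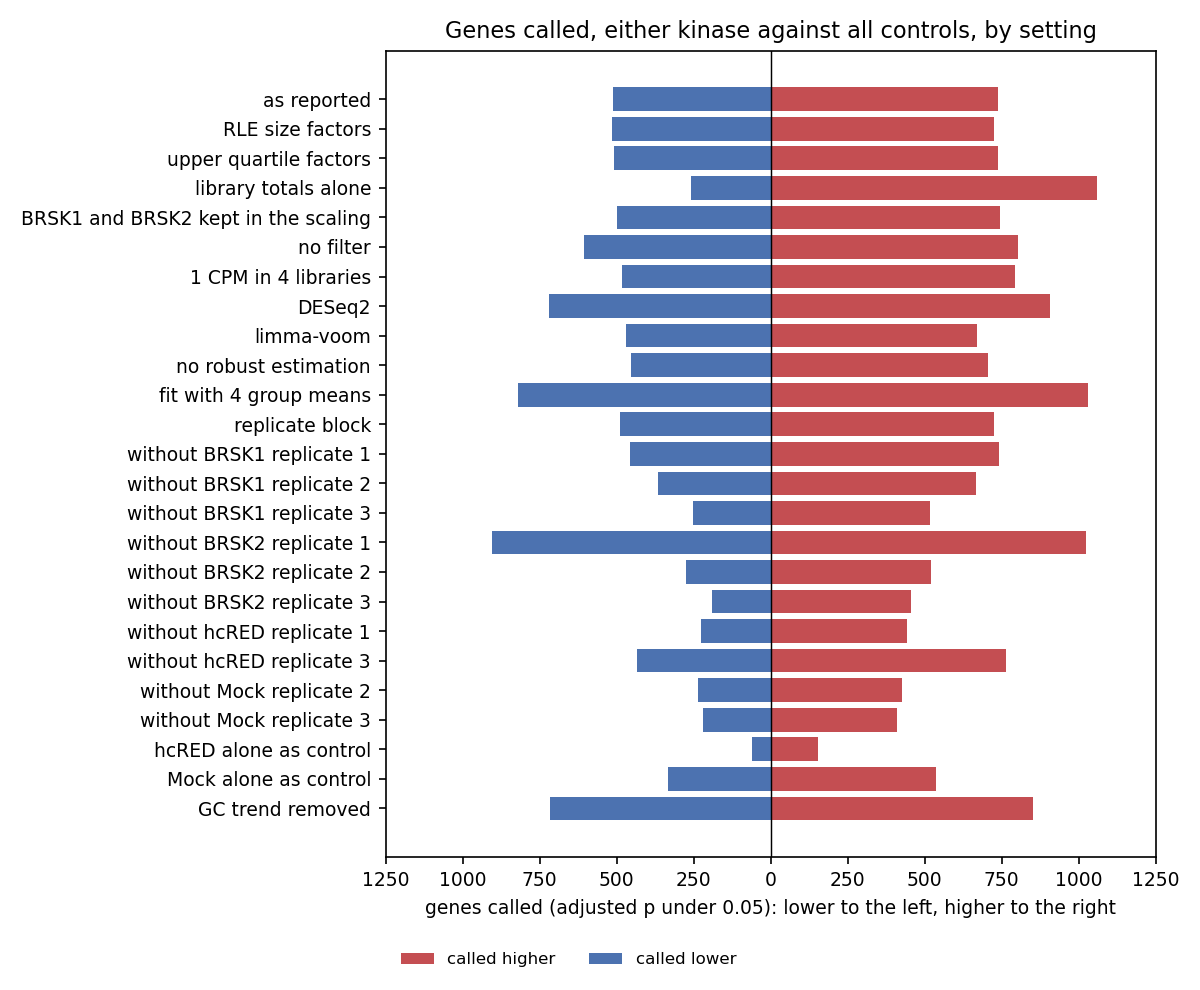
Genes called in either direction when the 6 kinase libraries were set against the controls (x axis, number of genes; blue to the left, lower; red to the right, higher) under each setting (y axis). The top bar holds the 513 lower and 738 higher genes reported; hcRED alone as control gives the shortest bar, with 61 and 155.

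The 12 genes that rose most with both kinases were ranked by the smaller of the kinases' own changes, among called genes whose libraries were fully apart. PIM1, a serine/threonine kinase that promotes survival and proliferation (ENSG00000137193; hg38 chromosome 6, plus strand, 37170203 to 37175426; protein coding), lay between 32.3 and 45.4 CPM in the 6 kinase libraries, with a median of 37.6. The hcRED libraries held 18.6 and 21.9 CPM of it and the Mock libraries 18.3 and 16.5. Every kinase library was above every control, at a 2.06-fold higher level (log2 fold change 1.04 ± 0.09 SE, adjusted p = 7.06e-07, the smallest of the comparison). SLC12A4, a potassium-chloride cotransporter, lay between 44.0 and 56.9 CPM (median 48.2) with the kinases, against 30.1 and 28.8 in hcRED and 28.6 and 26.1 in Mock. That is 1.74-fold higher (0.80 ± 0.08, adjusted p = 9.75e-07), with little spread on either side.

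WNT9A, a secreted Wnt ligand (ENSG00000143816; hg38 chromosome 1, minus strand, 227918656 to 227947898), had the largest fold change of the 12. It lay between 8.22 and 18.3 CPM (median 12.8) in the kinase libraries, and at 5.18 and 5.43 in hcRED and 4.81 and 4.56 in Mock, a 2.52-fold difference (1.34 ± 0.20, adjusted p = 0.000997). The BRSK2 libraries were the high ones, as described further on. ZC3H12A, an endoribonuclease (Regnase-1) that degrades inflammatory transcripts, lay between 5.40 and 10.7 CPM, against 3.36 and 4.41 in hcRED and 2.54 and 2.69 in Mock. It rose 2.51-fold (1.32 ± 0.20, adjusted p = 0.000703).

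DUSP8, a phosphatase that inactivates JNK and p38 MAP kinases, lay between 31.5 and 53.7 CPM with the kinases, against 19.7 and 26.8 in hcRED and 15.2 in both Mock libraries (1.196 ± 0.22, adjusted p = 0.0142). Here hcRED sat between Mock and the kinases, and the call did not pass against hcRED alone (adjusted p = 0.132). PTK2B, a calcium-responsive tyrosine kinase of the focal adhesion kinase family, rose 2.19-fold (1.13 ± 0.19) and AMOTL2, an angiomotin of cell junctions, 2.08-fold (1.06 ± 0.14). TXNIP, the thioredoxin-interacting protein, lay between 24.6 and 47.1 CPM against 15.2 to 22.4 in the controls (1.01 ± 0.19, adjusted p = 0.0129). Its call did not pass without Mock replicate 3 (adjusted p = 0.0536) or against hcRED alone (0.17), and neither did that of WNT9A against hcRED alone (0.0711).

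The remaining 4 were the CCCH zinc finger protein gene ZC3H6 (0.90 ± 0.11), the phosphatase PTP4A3 (0.75 ± 0.12), the phospholipase PLA2G6 (0.73 ± 0.11) and PPP1R15A. PPP1R15A (GADD34), which directs a phosphatase to eIF2alpha to restore translation after stress, lay between 49.7 and 82.0 CPM against 26.6 to 47.0 in the controls (0.85 ± 0.20, adjusted p = 0.037). It did not pass without BRSK1 replicate 2 or 3, BRSK2 replicate 2 or 3, hcRED replicate 1, or Mock replicate 2 or 3 (adjusted p from 0.0602 to 0.101), nor with no filter (0.0656) or against hcRED alone (0.259). ZC3H12A, PTK2B, AMOTL2, PIM1, ZC3H6, PTP4A3, PLA2G6 and SLC12A4 were called higher under each of the 24 alternatives run.

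**Figure D2:**
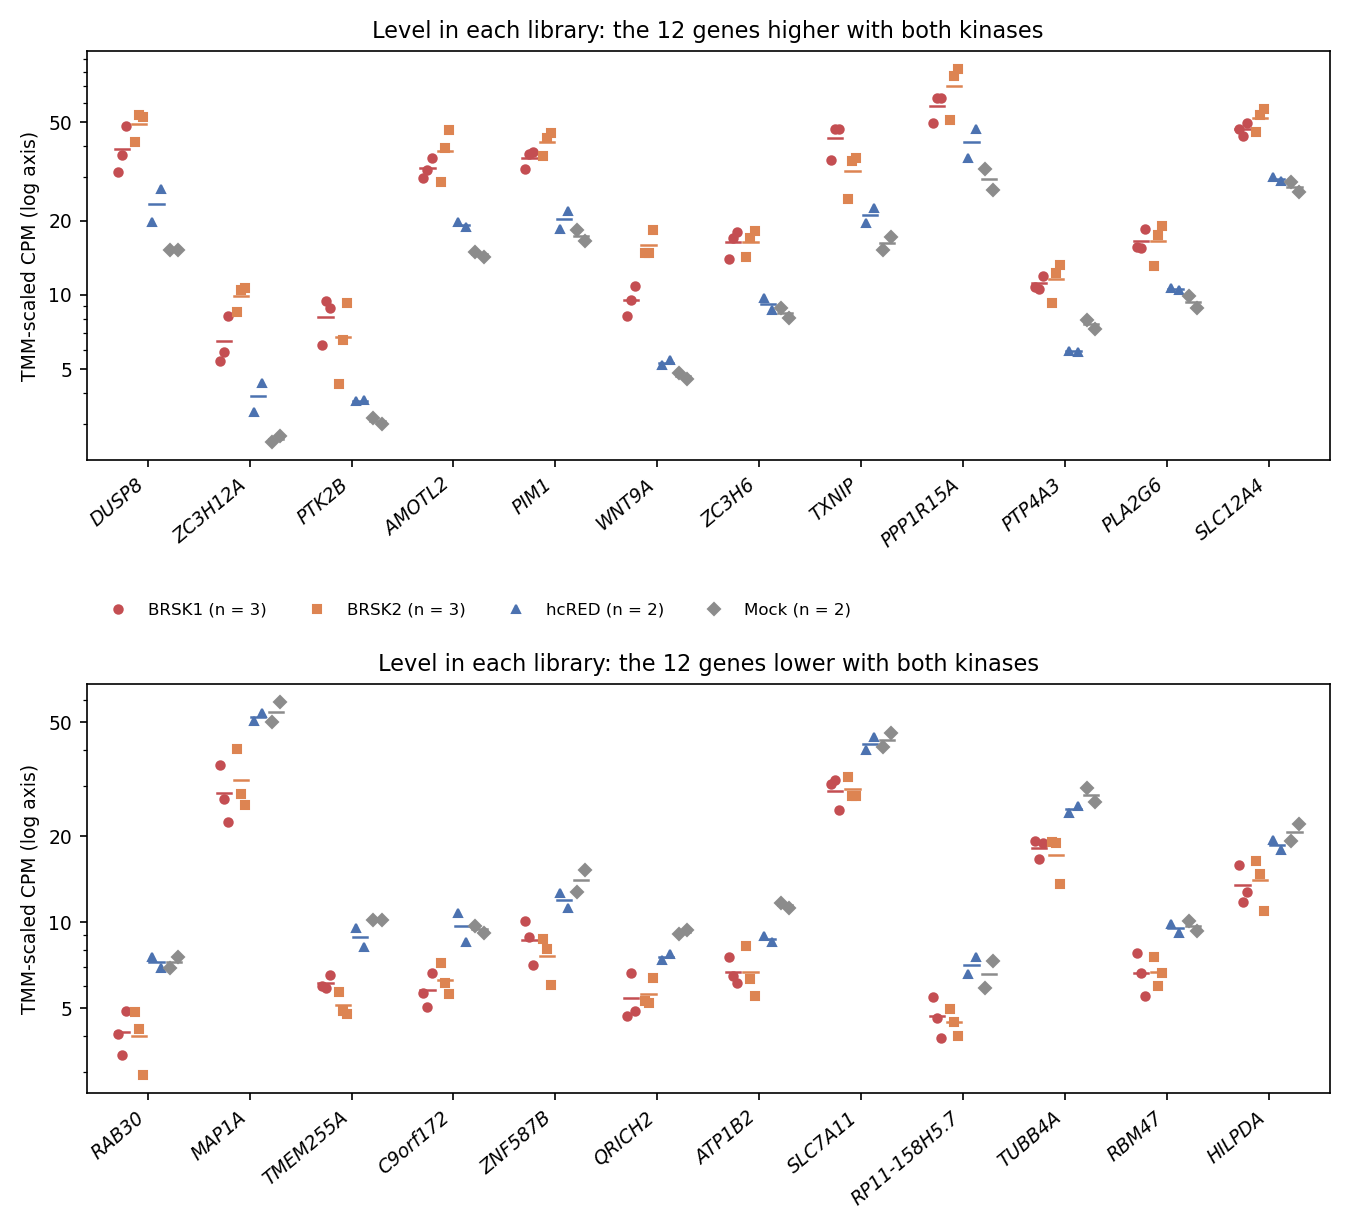
Level in each library (y axis, TMM-scaled CPM on a log axis) of the 12 genes that rose most and the 12 that fell most with both kinases (x axis). Each point is a library and each short line a group mean (n = 3, 3, 2 and 2); by the way they were chosen, no kinase point of these genes crosses a control point, and in DUSP8 the hcRED points lie between Mock and the kinases.

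The 12 genes that fell most changed by less. RAB30, a Golgi-associated small GTPase, lay between 2.93 and 4.88 CPM (median 4.14) with the kinases, against 7.55 and 6.92 in hcRED and 6.92 and 7.56 in Mock. It stood 1.77-fold lower (log2 fold change -0.83 ± 0.15, adjusted p = 0.00115). MAP1A, a microtubule-associated protein of neurons (ENSG00000166963; hg38 chromosome 15, plus strand, 43510958 to 43531620), lay between 22.4 and 40.2 CPM against 50.7 and 53.8 in hcRED and 50.3 and 58.7 in Mock (-0.84 ± 0.14, adjusted p = 0.00421). The kinase libraries spread almost as widely as their distance from the controls, yet did not reach them, and the call did not pass against hcRED alone (adjusted p = 0.0861).

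SLC7A11, the cystine-glutamate exchanger that supplies cystine for glutathione (ENSG00000151012; hg38 chromosome 4, minus strand, 138164097 to 138242349), lay between 24.7 and 32.3 CPM (median 29.1) in the kinase libraries. It was at 39.8 and 44.2 in hcRED and 40.8 and 46.0 in Mock, a 1.47-fold decrease (-0.56 ± 0.08, adjusted p = 0.000115). TUBB4A, a beta tubulin of neurons and glia, lay between 13.6 and 19.2 CPM against 24.1 to 29.4 in the controls (-0.57 ± 0.09). HILPDA, a hypoxia-induced lipid droplet protein, lay between 10.98 and 16.4 CPM against 17.9 to 22.1 (-0.52 ± 0.11).

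The other 7 that fell were the membrane protein gene TMEM255A (-0.75 ± 0.12), the zinc finger gene ZNF587B (-0.66 ± 0.13), C9orf172 (-0.66 ± 0.12), QRICH2 (-0.61 ± 0.13), ATP1B2, a beta subunit of the sodium pump (-0.58 ± 0.13), the noncoding RP11-158H5.7 (-0.57 ± 0.14) and the RNA-binding protein gene RBM47 (-0.52 ± 0.12). RAB30, TMEM255A, C9orf172, SLC7A11 and TUBB4A were called lower under all 24 alternatives. Against hcRED alone the other 6 beside MAP1A did not pass: ZNF587B (adjusted p = 0.0851), QRICH2 (0.185), ATP1B2 (0.26), RP11-158H5.7 (0.0719), RBM47 (0.104) and HILPDA (0.106). RP11-158H5.7 did not pass against Mock alone either (0.0928).

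Each kinase was also set against the mean of hcRED and Mock in a fit with 4 group means. Both contrasts use the same 4 control libraries, so their values are given side by side and not correlated. PIM1 stood at 0.93 ± 0.09 with BRSK1 and 1.15 ± 0.09 with BRSK2, SLC12A4 at 0.72 ± 0.08 and 0.87 ± 0.08, and ZC3H6 at 0.89 ± 0.12 and 0.90 ± 0.12. SLC7A11 was at -0.57 ± 0.09 and -0.55 ± 0.09, MAP1A at -0.92 ± 0.19 and -0.76 ± 0.20, and RAB30 at -0.81 ± 0.18 and -0.84 ± 0.18. For these 6 genes the difference between the kinases did not pass (adjusted p from 0.334 to 0.992). All 6 were picked by the smaller of the kinases' own changes, so a change with both kinases was required by the choice. Over the 738 genes called higher, the median size of the change was 0.37 with BRSK1 and 0.40 with BRSK2, and over the 513 called lower 0.27 and 0.28. These genes were called in the pooled fit, where a gene moved by 1 kinase alone has a larger spread. The medians therefore do not test whether the kinases agree.

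The kinases themselves differed in 55 genes (0.341% of those tested), 35 higher with BRSK2 and 20 higher with BRSK1, and 8 of the 55 were among the 1251. Of these 8, 7 are named here. WNT9A rose more with BRSK2 (1.67 ± 0.13) than with BRSK1 (0.93 ± 0.14), a difference of 0.74 ± 0.14 (adjusted p = 0.0232). DUSP1, a nuclear MAP kinase phosphatase, stood at 1.07 with BRSK2 and 0.43 with BRSK1 (difference 0.64 ± 0.09, adjusted p = 0.00175), and E2F1, a transcription factor of S phase entry, at 0.62 and 0.28 (difference 0.34 ± 0.06, adjusted p = 0.0232). The others were GRAMD1A, a sterol transfer protein of the endoplasmic reticulum (difference 0.36 ± 0.07), the cadherin gene CELSR3 (0.31 ± 0.06), ZNF581 (0.39 ± 0.08) and RELB (0.75 ± 0.17), each higher with BRSK2. As calls of both kinases together, GRAMD1A (0.119) and CELSR3 (0.0723) did not pass against hcRED alone, nor CELSR3 against Mock alone (0.0978). These differences rest on few libraries: the 55 calls fell to between 4 and 9 without any 1 of BRSK1 replicates 1, 2 or 3 or BRSK2 replicates 2 or 3, and to 15 without either hcRED replicate.

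**Figure D3:**
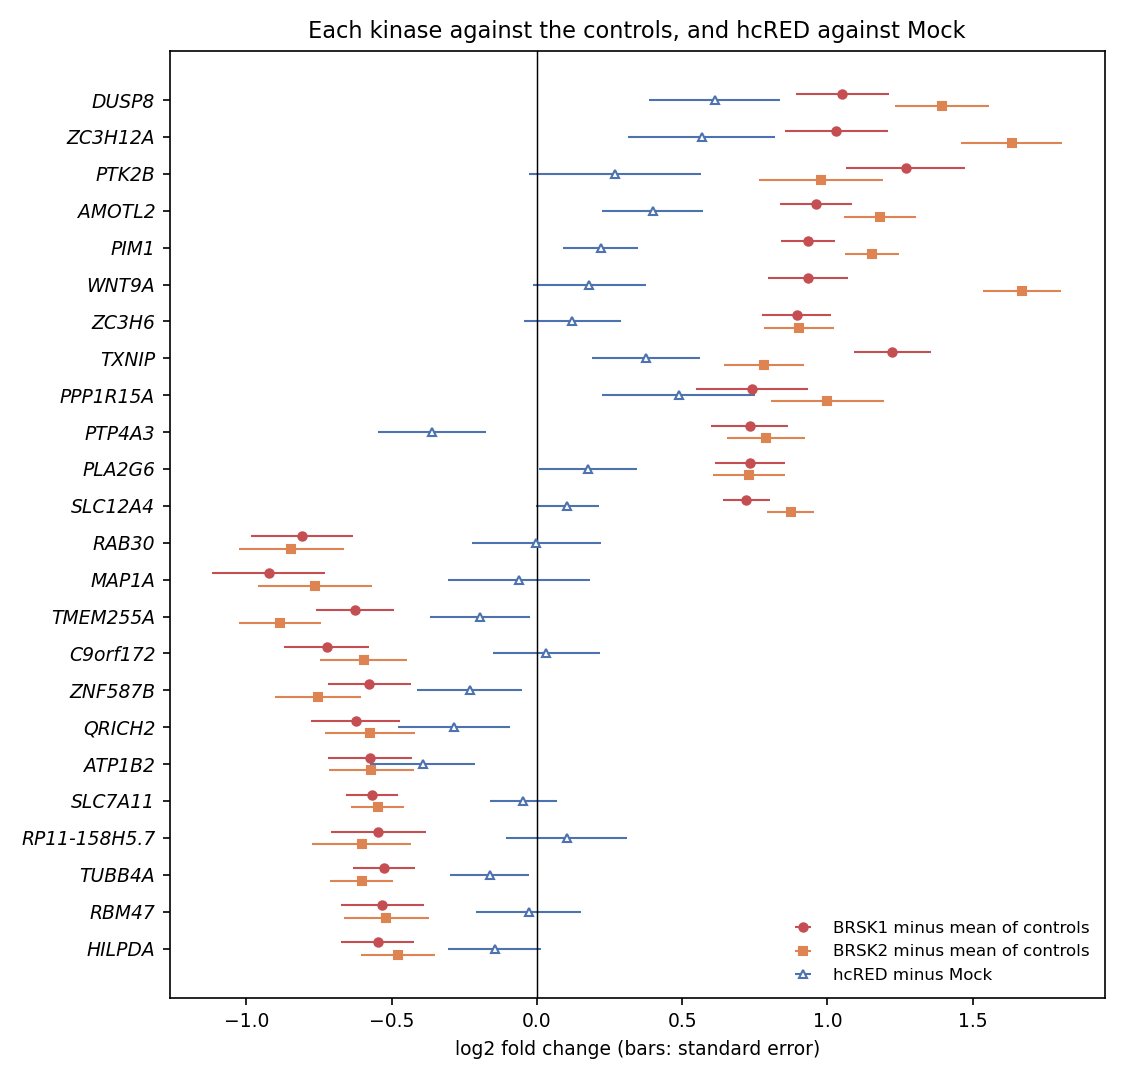
Log2 fold change (x axis, bars are standard errors) of the 24 leading genes (y axis) for BRSK1 (circles) and BRSK2 (squares), each against the mean of the same controls, and for hcRED against Mock (open triangles). Both kinases lie on the same side of 0 for every gene, as the choice of genes required; WNT9A has the kinases farthest apart, at 0.93 and 1.67.

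For the question of the series title, 49 NRF2 targets were listed and 43 of them tested. SLC7A11, GCLM, IDH1, EPHX1, FTL and BLVRB fell, and the other 37 did not pass. Of the 43, 27 were negative, as were 8163 of all 16134 genes tested. The median log2 fold change was -0.09, against -0.0027 over all genes tested, where 3.18% were called lower. After SLC7A11 the decreases were slight. FTL, the ferritin light chain that stores iron, lay between 276 and 317 CPM with the kinases against 346 and 344 in hcRED and 389 and 346 in Mock (-0.27 ± 0.05, adjusted p = 0.00365), and has processed pseudogenes that can share its reads. BLVRB, a biliverdin reductase, stood at -0.28 ± 0.08, IDH1, a cytosolic NADPH-producing dehydrogenase, at -0.27 ± 0.07, GCLM, the modifier subunit of the enzyme that starts glutathione synthesis, at -0.25 ± 0.07, and EPHX1, a microsomal epoxide hydrolase, at -0.22 ± 0.06. In all 6 genes each kinase library lay below each control, as in 291 of the 513 genes called lower. By the F test in the fit with 4 group means, GCLM was at -0.16 with BRSK1 (adjusted p = 0.159) and -0.33 with BRSK2 (0.0049). IDH1 was at -0.19 (0.127) and -0.35 (0.00636), in the same order. SLC7A11 passed with each kinase. The difference between the kinases did not pass for GCLM (0.335), IDH1 (0.424) or SLC7A11 (0.966).

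NQO1, TXNRD1 and HMOX1, other NRF2 targets that are used as reporters of the pathway, did not pass. NQO1, a quinone reductase, stood at -0.25 ± 0.14 (adjusted p = 0.285), TXNRD1, thioredoxin reductase, at -0.11 ± 0.05 (0.18), and HMOX1, heme oxygenase, at -0.05 ± 0.11 (0.83), with kinase and control libraries overlapping in all 3. NFE2L2, which encodes NRF2, was at 0.04 ± 0.09 (adjusted p = 0.847), and KEAP1 at -0.03 ± 0.05 (0.749). Among 18 tested regulators of the pathway MAFK rose (0.44 ± 0.09) and AMER1 fell, where 4.57% of all genes were called higher and 3.18% lower. The count of regulators called lower was 5 without BRSK2 replicate 1. It was 0 without BRSK1 replicate 2 or 3, BRSK2 replicate 3, hcRED replicate 1 or either Mock replicate. MAFK encodes a small MAF protein that pairs with NRF2 on DNA, and lay between 41.9 and 62.2 CPM with the kinases against 34.8 to 41.3 in the controls, with no call against Mock alone (adjusted p = 0.0781). SLC7A11 kept its call under all alternatives, and FTL under all but hcRED alone (0.0877). IDH1 did not pass without BRSK2 replicate 2 or 3, hcRED replicate 1 or Mock replicate 2 or 3 (adjusted p from 0.0544 to 0.0849) or against hcRED alone (0.304). GCLM did not pass without BRSK2 replicate 2 or 3 or either hcRED replicate (0.0552 to 0.128), nor BLVRB without BRSK1 replicate 2 or 3, BRSK2 replicate 3, hcRED replicate 3 or either Mock replicate (0.0519 to 0.0845). EPHX1 did not pass without any 1 of the BRSK1 replicates, BRSK2 replicate 3, either hcRED replicate or Mock replicate 2 (0.0514 to 0.0879). GCLM, BLVRB and EPHX1 also failed under library totals and against either control group alone (0.0553 to 0.297).

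NRF2 binds the antioxidant response element, whose core TGACNNNGC was searched on both strands in RefSeq promoter windows (GRCh38.p14), from 250 bases before to 50 after each annotated start. It was found in 13.3% of all 35116 windows, 14.4% of the windows of tested genes and 12.9% of those of genes called lower, so its presence is common. The windows of GCLM (chr1:93909416-93909504, minus strand) and EPHX1 (chr1:225825236-225825324, plus strand) are shown as 2 of the 3 NRF2 targets that fell and hold a match, in capitals, 34 and 78 bases before the start. In GCLM the match is on the opposite strand. EPHX1 holds a match in 1 of its 3 windows. IDH1 also holds a match, in 1 of 2 windows, FTL and BLVRB hold none, and SLC7A11 has no window.
GCLM: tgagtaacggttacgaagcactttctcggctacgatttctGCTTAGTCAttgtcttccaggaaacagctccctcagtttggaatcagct
EPHX1: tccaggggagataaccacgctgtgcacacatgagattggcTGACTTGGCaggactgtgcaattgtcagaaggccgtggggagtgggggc

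Microtubules are a known substrate system of these kinases, and their subunits are encoded by the tubulin genes. Of 16 tested alpha, beta and other tubulins 7 fell, against 3.18% of all genes, and 9 did not pass, with a median of -0.24. TUBB2A, a beta tubulin of neurons, lay between 23.6 and 28.9 CPM with the kinases against 38.8 and 39.2 in hcRED and 31.9 and 36.2 in Mock (-0.49 ± 0.08, adjusted p = 0.000489). TUBA1A, the main alpha tubulin of developing neurons, lay between 62.8 and 81.6 CPM against 91.2 in both hcRED libraries and 99.0 and 92.5 in Mock (-0.41 ± 0.07, adjusted p = 0.000778). In both genes every kinase library was below every control, as in 291 of the 513 genes called lower. TUBB4B fell by 0.38 ± 0.07, from 490 to 563 CPM in the controls to 331 to 470. TUBB (-0.21 ± 0.06), TUBB6 (-0.28 ± 0.07) and TUBA1C (-0.25 ± 0.06), outside the rule for named genes and picked with their values known, had overlapping libraries. Tubulins are close paralogs, so the split of reads between single members is uncertain.

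TUBB2A, TUBA1A and TUBB4A held their calls in all alternatives, while TUBB4B did not pass against Mock alone (adjusted p = 0.0503). TUBB did not pass without BRSK1 replicate 3, BRSK2 replicate 3, hcRED replicate 1 or Mock replicate 2 (0.0652 to 0.103), TUBB6 without either hcRED replicate (0.0556 and 0.0578), and TUBA1C without BRSK2 replicate 3, hcRED replicate 1 or Mock replicate 2 (0.054 to 0.0984). Against Mock alone TUBB (0.0695), TUBB6 (0.276) and TUBA1C (0.172) did not pass, nor did TUBB against hcRED alone (0.205). The count of 7 became 4 without hcRED replicate 1 and 3 against Mock alone. Of 22 tested microtubule-associated proteins 3 fell, MAP1A, STMN3 and CLASP1, where 3.18% of all genes were called lower. That count was 1 without BRSK2 replicate 2 or 3 or Mock replicate 2 or 3, and 0 against hcRED alone. MAPT, which encodes tau, was at -0.07 ± 0.09 (adjusted p = 0.666). Of 21 tested genes of neuronal polarity and the presynaptic terminal 1 rose, VAMP2, against 4.57% of all genes. Without Mock replicate 2 or 3, 0 of them did.

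**Figure D4:**
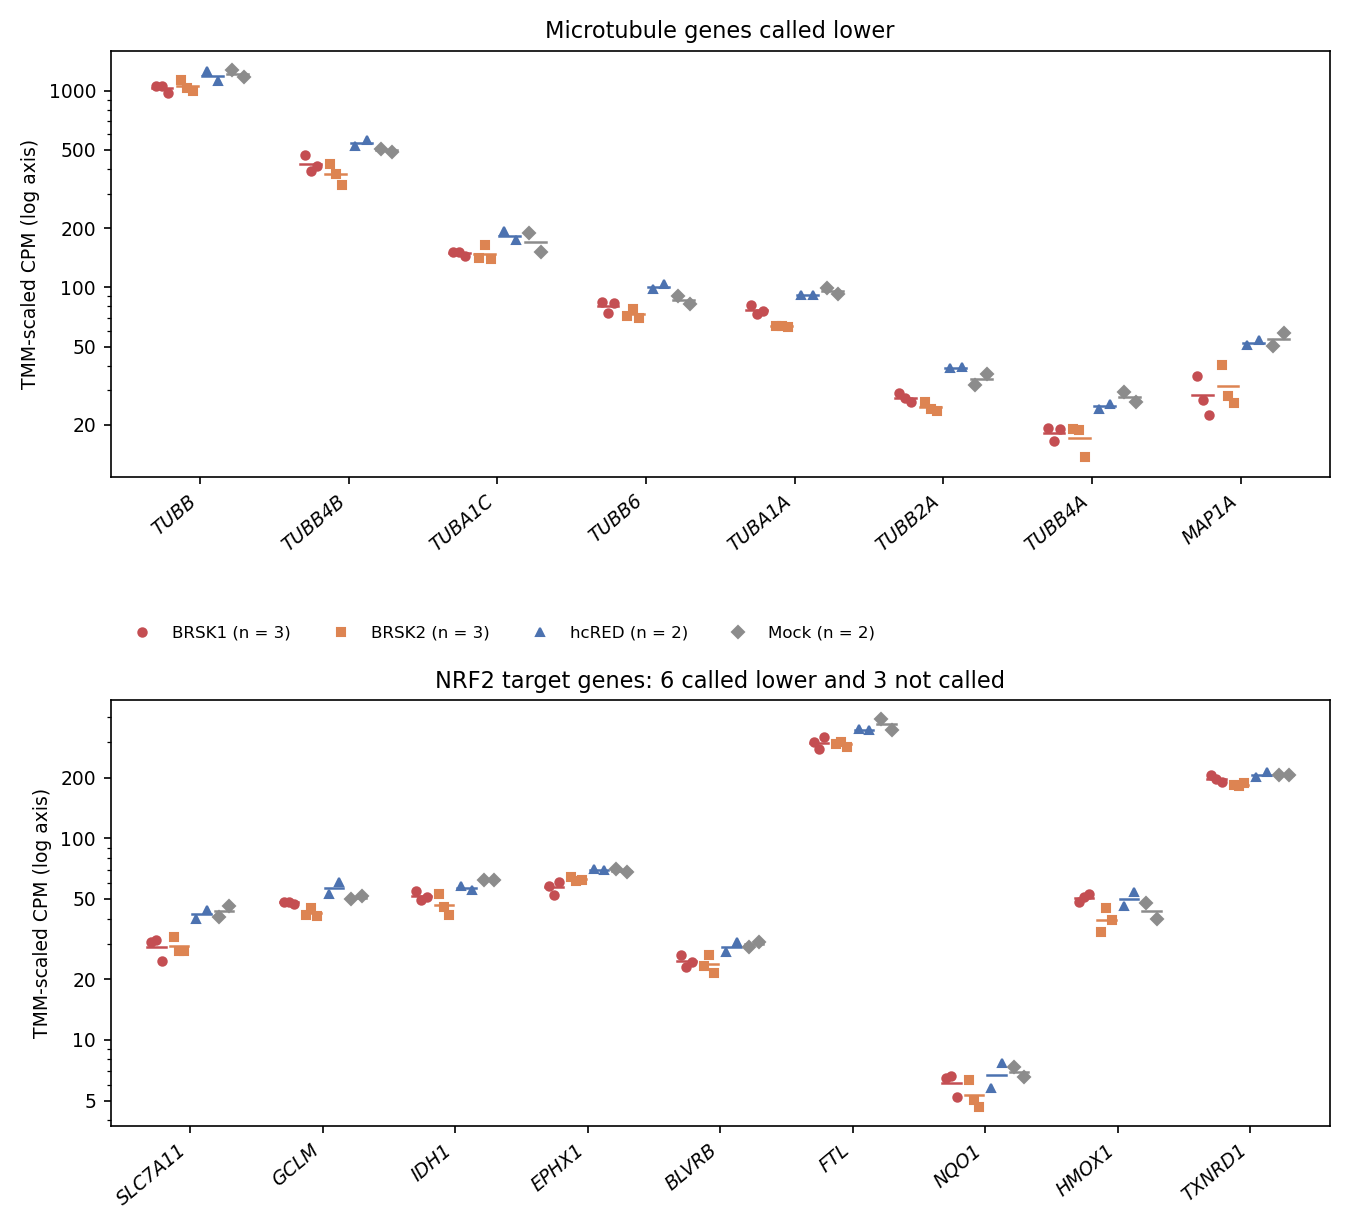
Level in each library (y axis, TMM-scaled CPM on a log axis) of 7 tubulins and MAP1A, all called lower (top), and of 9 NRF2 targets (bottom). Points are libraries and short lines group means (n = 3, 3, 2 and 2); the kinase points of TUBB2A, TUBA1A, TUBB4A and SLC7A11 lie below all control points, while those of NQO1, HMOX1 and TXNRD1 overlap them.

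Early response genes are the first transcripts that growth factors and stress induce. Of 25 tested genes of the EGR, NR4A, IER and KLF kind 9 rose and 16 did not pass, with a median of 0.33, where 4.57% of all genes were called higher. KLF10, a transcription factor that TGF-beta induces, lay between 33.7 and 51.8 CPM with the kinases against 24.5 and 24.6 in hcRED and 25.7 and 21.8 in Mock (0.73 ± 0.10, adjusted p = 0.000115). ZFP36L1, which destabilises AU-rich mRNAs, rose by 0.44 ± 0.07 (48.3 to 60.5 CPM against 39.3 to 44.6). CYR61, a secreted matrix protein, rose by 0.60 ± 0.12, the orphan nuclear receptor NR4A1 by 0.46 ± 0.10 and KLF6 by 0.34 ± 0.07. In all 5 genes the kinase libraries were above the controls, as in 469 of the 738 genes called higher.

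Of 8 tested AP-1 subunits 2 rose, JUN and JUND, where 4.57% of all genes were called higher. JUND lay between 88.4 and 111 CPM against 66.7 to 86.6 (0.46 ± 0.08, adjusted p = 0.000804). The count was 1 without BRSK2 replicate 2 or 3, either hcRED replicate or Mock replicate 3. FOS stood at 0.09 ± 0.21 (adjusted p = 0.852), EGR1 at 0.08 ± 0.13 (0.756) and JUNB at 0.40 ± 0.27 (0.431), the last at 0.80 with BRSK2 and -0.13 with BRSK1 (difference 0.94, adjusted p = 0.00053). DUSP1 lay between 33.5 and 63.9 CPM, above the narrow range of 26.2 to 26.9 in the controls (0.78 ± 0.19, adjusted p = 0.0405). Its call did not pass without BRSK2 replicate 1 or 2, either hcRED replicate or either Mock replicate (0.057 to 0.112), with no filter (0.0552) or against hcRED (0.281) or Mock alone (0.188). JUND, KLF10 and ZFP36L1 were called in all alternatives, and CYR61 (0.0756), NR4A1 (0.0839) and KLF6 (0.119) in all but hcRED alone, against which 2 of the 25 were called higher. DUSP1 and DUSP8 were the 2 of 16 tested MAP kinase phosphatases and sprouty genes that rose, a count that was 1 without BRSK2 replicate 1 or 2, hcRED replicate 1 or either Mock replicate and 0 against hcRED alone. Of 14 CREB and CRTC targets 2 rose, NR4A1 and CREB5 (0.35 ± 0.08), the latter not against Mock alone (0.127).

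The cAMP response element TGACGTCA, which is its own reverse complement and binds CREB and ATF factors, was in 1.85% of all promoter windows and 2.69% of those of tested genes. It was in 35 of 801 windows of genes called higher (4.37%) and 11 of 573 of genes called lower (1.92%). These shares describe the letters and carry no test. The AP-1 site TGANTCA was in 5.24% and 4.71% of the same windows, against 5.13% for tested genes. The matches of 4 genes that rose and of TUBB2A, which fell, are shown with 40 bases on either side (capitals) so that their surroundings can be compared: DUSP1 (chr5:172771273-172771360, minus strand), DUSP8 (chr11:1572342-1572429, minus strand), JUND (chr19:18281775-18281862, minus strand), PPP1R15A (chr19:48872323-48872410, plus strand) and TUBB2A (chr6:3157557-3157644, minus strand). They begin 125, 118, 200, 58 and 60 bases before the start, and DUSP8 has a second match in its promoter window, outside the stretch printed.
DUSP1: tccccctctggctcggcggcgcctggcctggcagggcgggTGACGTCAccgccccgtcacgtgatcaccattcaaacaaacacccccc
DUSP8: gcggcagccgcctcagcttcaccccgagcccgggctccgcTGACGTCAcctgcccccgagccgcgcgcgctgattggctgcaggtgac
JUND: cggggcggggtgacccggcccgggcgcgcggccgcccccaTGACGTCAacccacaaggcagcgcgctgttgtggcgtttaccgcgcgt
PPP1R15A: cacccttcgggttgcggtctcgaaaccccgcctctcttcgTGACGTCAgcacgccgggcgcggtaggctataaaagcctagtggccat
TUBB2A: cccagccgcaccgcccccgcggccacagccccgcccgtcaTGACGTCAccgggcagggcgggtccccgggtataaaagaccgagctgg

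Of 21 tested genes of the NF-kB pathway and its targets 5 rose, against 4.57% of all genes, and 16 did not pass. The 5 were ZC3H12A, RELB, NFKBIZ, NFKB2 and MAP3K14. NFKBIZ, a nuclear inhibitor-like cofactor, lay between 7.03 and 9.12 CPM with the kinases against 4.24 to 5.23 in the controls (0.69 ± 0.13, adjusted p = 0.00201). NFKB2, precursor of the p52 subunit, lay between 37.0 and 58.4 CPM against 36.4 and 33.0 in hcRED and 31.7 and 27.5 in Mock (0.50 ± 0.10). MAP3K14, the kinase NIK that starts the noncanonical pathway, rose by 0.49 ± 0.12, and RELB, the partner of p52, lay between 7.33 and 17.8 CPM (1.15 ± 0.30, adjusted p = 0.0448). In RELB the groups overlapped, since hcRED replicate 3 was at 8.35; the other controls were at 5.23, 3.54 and 4.71. RELB lies outside the rule for named genes and was chosen after its values were seen.

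RELB did not pass without any 1 of 8 libraries, all but BRSK1 replicate 1 and hcRED replicate 3 (adjusted p from 0.0518 to 0.131), MAP3K14 without Mock replicate 2 (0.0596) or 3 (0.0738), and RELB (0.314), MAP3K14 (0.293) and NFKB2 (0.136) against hcRED alone. The count of 5 became 3 without Mock replicate 2 or 3 and 2 against hcRED alone. The NF-kB core GGANTTTCC was in 2% of the promoter windows of genes called higher and 1.58% of those of tested genes. That of NFKB2 (chr10:102395645-102395733, plus strand) is shown, with the match in capitals 20 bases before the start. It is in 1 of the 3 windows of NFKB2.
NFKB2: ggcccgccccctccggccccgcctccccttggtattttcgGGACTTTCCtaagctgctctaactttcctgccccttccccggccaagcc

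Of 20 tested genes of TGF-beta and BMP signalling 3 rose, SMAD7, PMEPA1 and ID4, where 4.57% of all genes were called higher. SMAD7, an inhibitor that closes the TGF-beta receptor loop, lay between 45.7 and 54.3 CPM with the kinases against 30.6 and 34.2 in hcRED and 28.1 and 25.9 in Mock (0.75 ± 0.08, adjusted p = 2.47e-06). PMEPA1, another inhibitor of that pathway, rose by 0.44 ± 0.10 and ID4, a BMP target, by 0.31 ± 0.06. SMAD7 was called in every alternative, PMEPA1 not against hcRED alone (adjusted p = 0.0708) and ID4 not against Mock alone (0.053).

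Of 20 tested Notch receptors, ligands and targets 6 rose, against 4.57% of all genes, and 14 did not pass, with a median of 0.16. HES4, a repressor that Notch induces, lay between 97.3 and 126 CPM against 75.2 and 75.7 in hcRED and 84.5 and 58.1 in Mock (0.68 ± 0.09, adjusted p = 0.000467). The related repressors HEY2 (0.56 ± 0.10), HES1 (0.36 ± 0.08) and HES5 (1.35 ± 0.28) rose as well, HES5 from between 0.518 and 0.922 CPM in the controls to between 1.39 and 2.86. For these 4 genes no kinase library reached down to a control, as for 469 of the 738 genes called higher. HES4 and HEY2 held in all alternatives; HES5 did not pass against hcRED alone (0.0872) nor HES1 against Mock alone (0.0646), and 4 of the 20 were called higher against either. The binding letters of the Notch factor CSL, GTGGGAA, were in 5.74% of windows of genes called higher and 5.7% of those of tested genes. The match in HES4 (chr1:1000128-1000214, minus strand) is in capitals, 77 bases before the start.
HES4: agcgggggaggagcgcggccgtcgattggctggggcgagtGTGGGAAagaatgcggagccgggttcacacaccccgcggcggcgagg

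The kinases of the Hippo pathway restrain the coactivators YAP and TAZ. Of its 23 tested genes 2 rose (AMOTL2 and ANKRD1), against 4.57% of all genes. Another 2 fell (YAP1 and WWTR1, which encodes TAZ), against 3.18%. AMOTL2, which binds YAP and is also its target, lay between 28.6 and 46.4 CPM against 19.8 and 18.8 in hcRED and 14.96 and 14.3 in Mock. YAP1 itself fell by 0.32 ± 0.06, from 51.4 to 56.9 CPM in the controls to 40.4 to 47.2, with no call against Mock alone (adjusted p = 0.0699). The count of 2 lower was 1 with any 1 library left out other than BRSK2 replicate 1. ANKRD1, a YAP target, was called higher at very low levels: 0 CPM in 2 of the 4 controls, up to 0.359 in the others, and 0.360 to 1.75 with the kinases, so no fold is given. CYR61, described above, and CTGF are YAP targets as well but were counted with the early response genes. CTGF, a matricellular protein chosen after its values were seen, lay between 1.46 and 2.58 CPM against 0.932 to 1.13 (0.97 ± 0.25, adjusted p = 0.0179). It did not pass without Mock replicate 3 (0.0569) or against hcRED (0.168) or Mock alone (0.0545). The ANKRD1 call did not pass against hcRED alone (adjusted p = 0.0992). TEAD factors carry YAP to DNA, and their letters GGAATG were in 11.1% of windows of genes called higher and 11.3% of those of tested genes. AMOTL2 (chr3:134374471-134374556, minus strand) holds them in 1 of its 2 windows, on the opposite strand, in capitals, 69 bases before the start.
AMOTL2: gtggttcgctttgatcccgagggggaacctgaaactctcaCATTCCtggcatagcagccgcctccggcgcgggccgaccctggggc

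Of 23 tested Wnt ligands and feedback genes WNT9A and NOTUM rose, where 4.57% of all genes were called higher. NOTUM, a secreted enzyme that inactivates Wnt proteins, lay between 1.73 and 2.66 CPM against 0.839 and 0.871 in hcRED and 1.43 and 0.621 in Mock (1.22 ± 0.26, adjusted p = 0.00518; 0.0502 against Mock alone). Against hcRED alone, and likewise against Mock alone, 1 of the 23 was called higher. Among 11 tested PIM kinases and SOCS inhibitors PIM1 and PIM3 rose, in every alternative. PIM3 lay between 139 and 188 CPM against 108 and 117 in hcRED and 115 and 101 in Mock (0.56 ± 0.07, adjusted p = 0.000155). SOCS3, an inhibitor of JAK-STAT signalling, had the larger value of 1.79 ± 0.54 without passing (adjusted p = 0.0834). It passed without BRSK1 replicate 1 (1.99, adjusted p = 0.00707), by DESeq2 (0.00791), with no robust estimation (0.00982) and in the fit with 4 group means (7.4e-05), and reached 0.363 against hcRED alone. It stood at 2.42 with BRSK2 and 0.75 with BRSK1, and the kinases differed in it (1.67 ± 0.24, adjusted p = 0.00175).

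TXNIP and 3 more of its family and regulators rose among 10 tested, where 4.57% of all genes were called higher. ARRDC4 and ARRDC3 are, like TXNIP, alpha-arrestins that limit glucose uptake or receptor signalling, and MLX is the DNA-binding partner of the glucose sensor that drives TXNIP and ARRDC4. ARRDC4 lay between 36.2 and 46.0 CPM with the kinases against 26.1 and 24.3 in hcRED and 33.0 and 33.6 in Mock (0.49 ± 0.09). ARRDC3 rose by 0.57 ± 0.12 and MLX by 0.32 ± 0.06. All 4 had their kinase libraries above the controls, as did 469 of the 738 genes called higher. TXNIP and ARRDC4 ranked the control groups in opposite order, hcRED being the higher in TXNIP and the lower in ARRDC4. Against hcRED alone ARRDC3 (adjusted p = 0.17) and MLX (0.061) did not pass, and against Mock alone ARRDC4 (0.0626).

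Of 28 tested genes of glycolysis and the hypoxia response 9 fell, 2 rose and 17 did not pass. Their median was -0.16, and over all genes 3.18% were called lower and 4.57% higher. LDHA, lactate dehydrogenase, lay between 680 and 883 CPM with the kinases, against 954 and 868 in hcRED and 1044 and 1108 in Mock (-0.34 ± 0.07, adjusted p = 0.00484). Its highest kinase library passed the lower hcRED library. PKM, pyruvate kinase, stood at -0.29 ± 0.06, PGAM1, phosphoglycerate mutase, at -0.31 ± 0.06, and SLC2A1, the glucose transporter GLUT1, at -0.32 ± 0.07; PKM and SLC2A1 lie outside the rule for named genes and were chosen after their values were seen. BNIP3L, a hypoxia-induced receptor of mitophagy, lay between 30.7 and 38.0 CPM against 44.1 to 48.5 (-0.41 ± 0.07). The neuronal enolase ENO2 went the other way, at 0.43 ± 0.09, as did PFKM, a phosphofructokinase.

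The control groups also differed in this list: the median of hcRED against Mock was -0.16, as large as that of the kinases, and its part in the result was not tested. Of the 28 genes 1 was called lower against hcRED alone and 11 against Mock alone, with LDHA (adjusted p = 0.195), PKM (0.195), PGAM1 (0.11) and SLC2A1 (0.161) not passing against hcRED alone. BNIP3L and ENO2 were called in all alternatives. The count of 9 became 5 without Mock replicate 2, and the 2 that rose became 1 without any 1 library other than BRSK2 replicate 1.

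Mitochondrially encoded mRNAs gave the lowest median of the pathway lists, -0.32, with all 13 negative, yet 1 passed. MT-ND2, a subunit of complex I, lay between 1725 and 2570 CPM with the kinases against 2573 and 2891 in hcRED and 3313 and 3662 in Mock, so that the highest kinase library almost met the lower hcRED library (-0.49 ± 0.11, adjusted p = 0.0226). It did not pass without BRSK1 replicate 2, BRSK2 replicate 3 or Mock replicate 2 or 3 (0.0513 to 0.0694) or against hcRED alone (0.195). Here too the controls differed, with a median of -0.34 for hcRED against Mock, whose part in the result was not tested, and 6 of the 13 passed against Mock alone. Without single libraries the count was 4 (BRSK1 replicate 1 or hcRED replicate 1), 3 (BRSK2 replicate 1) or 0 (BRSK1 replicate 2, BRSK2 replicate 3 or either Mock replicate). Of 63 nuclear-encoded subunits of the respiratory chain 5 fell, where 3.18% of all genes were called lower, with a median of -0.06: NDUFB10, NDUFS5, NDUFS6, NDUFB7 and UQCR11. NDUFS6, a subunit of complex I, lay between 79.1 and 92.4 CPM against 98.0 to 113 (-0.33 ± 0.06) and was called in every alternative. UQCR11, of complex III, stood at -0.44 ± 0.09 and NDUFB7 at -0.28 ± 0.06; against hcRED alone neither passed (0.106 and 0.0573), and NDUFB7 did not against Mock alone (0.0502). The count of 5 was 3 without hcRED replicate 1 or Mock replicate 2 or against Mock alone, 1 against hcRED alone and 8 with the GC trend removed.

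**Figure D5:**
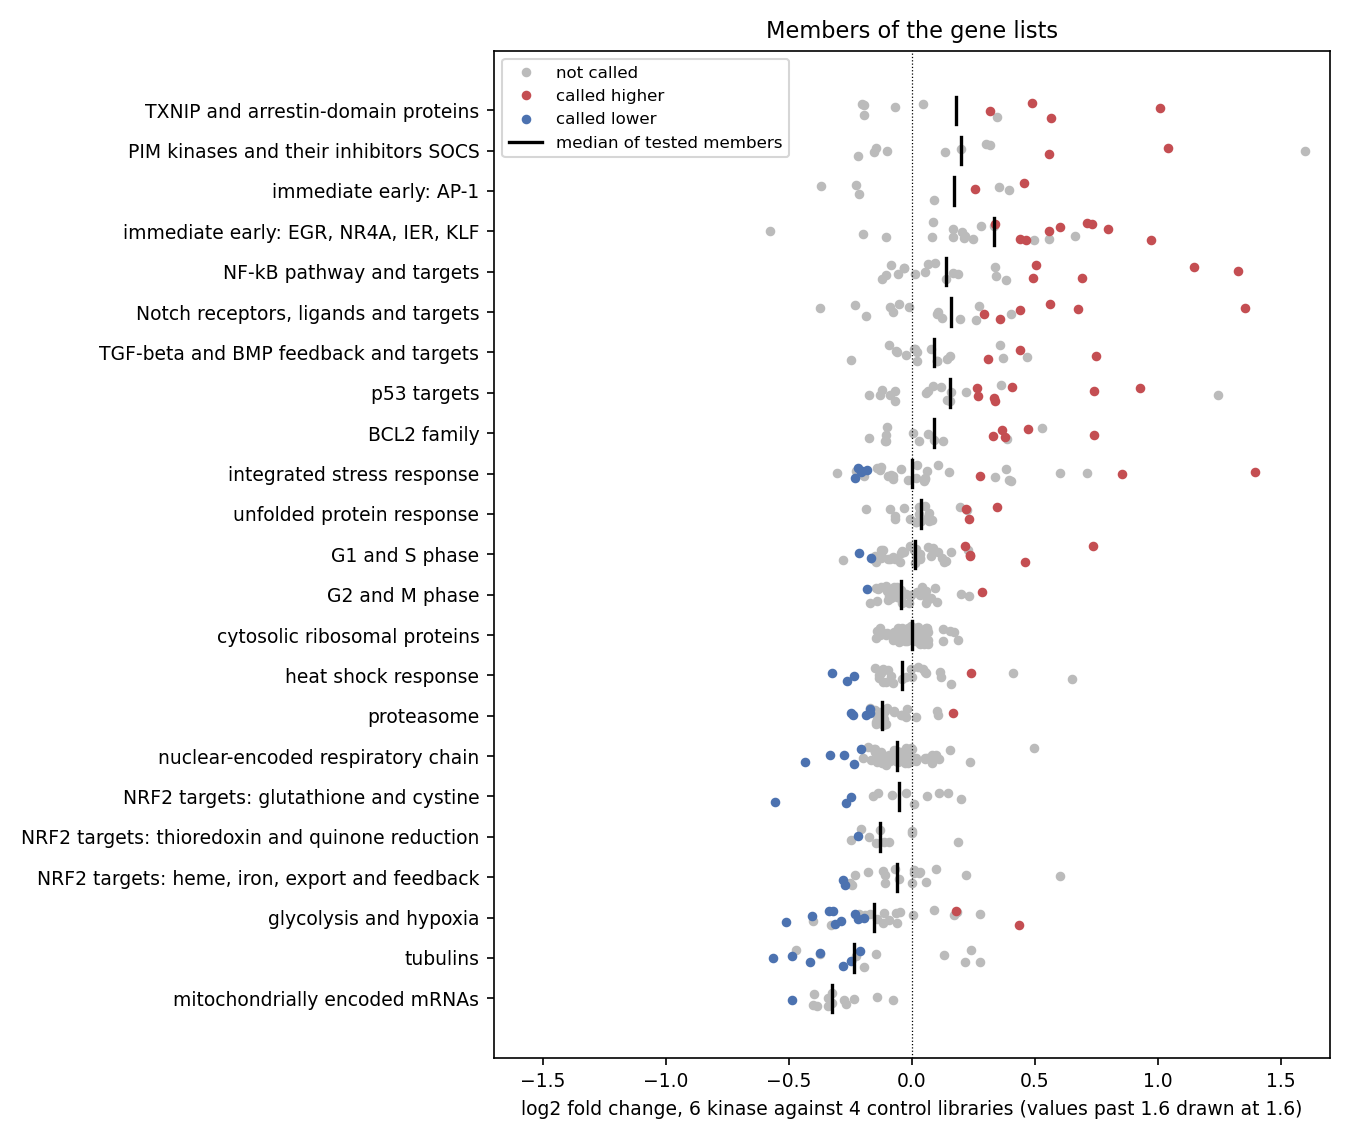
Log2 fold change of the tested members (x axis; grey, not called; red, called higher; blue, called lower) of 23 gene lists (y axis), 6 kinase against 4 control libraries, with the median of each list as a black line. The 1 value past 1.6, SOCS3 at 1.79, is drawn at 1.6. Early response genes sit mostly to the right (median 0.33), tubulins, glycolysis genes and mitochondrial mRNAs to the left (-0.24, -0.16 and -0.32), and cytosolic ribosomal proteins on 0.

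Stress pathways that depend on protein folding or translation showed no common direction. Of 34 tested genes of the integrated stress response 3 rose and 5 fell, against 4.57% and 3.18% of all genes. Their median was 0.0012. PPP1R15A, described above, GDF15 and MTHFD2 rose, and the amino acid genes PSAT1, PHGDH, SLC1A5 and IARS and the translation inhibitor EIF4EBP1 fell. GDF15, a stress cytokine, lay between 0.971 and 2.79 CPM against 0.414 to 1.14 (1.39 ± 0.31), overlapping hcRED replicate 1, and MTHFD2, a mitochondrial folate enzyme, rose by 0.28 ± 0.06; neither passed against hcRED alone (adjusted p = 0.158 and 0.104). DDIT3, the factor CHOP, stood at 0.71 ± 0.24 without passing (0.0766). It passed without BRSK1 replicate 1 (0.0485) or BRSK2 replicate 1 (0.0078), with no filter (0.0121) and by DESeq2 (0.0441), and reached 0.329 against hcRED alone. ATF4 was at 0.06 ± 0.07 (0.656). The 3 rising were 5 without BRSK1 replicate 1. The 5 falling were 3 without BRSK1 replicate 1, 2 without BRSK1 replicate 2, 1 without BRSK2 replicate 2 or hcRED replicate 3 and 0 without BRSK1 replicate 3, BRSK2 replicate 3, hcRED replicate 1 or either Mock replicate.

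Of 27 tested heat shock genes 3 fell (DNAJA1, HSPA8 and HSPA4) and 1 rose (HSF2), against 3.18% and 4.57% of all genes. HSF2 did not pass without any 1 of 8 libraries: the 3 BRSK1, BRSK2 replicates 2 and 3, hcRED replicate 1 and both Mock. DNAJA1, an HSP40 co-chaperone, lay between 308 and 369 CPM with the kinases against 407 to 441 (-0.33 ± 0.05, adjusted p = 0.000763) and held in all alternatives. HSPA8, the constitutive HSP70, fell by 0.26 ± 0.06, though not against hcRED (0.0615) or Mock alone (0.0531). Proteasome subunits and assembly factors fell in 5 of 34 cases (PSMB2, PSMC4, PSMD1, PSMD11 and POMP) and rose in 1 (PSMD4, not without any 1 library other than BRSK1 replicate 1 or BRSK2 replicate 1), and 30 of the 34 were negative (median -0.12). POMP, the chaperone that matures the core particle, lay between 93.3 and 110 CPM against 113 to 126 (-0.25 ± 0.06) and did not pass against Mock alone (0.139). That count of 5 was 8 without BRSK2 replicate 1, 3 without BRSK1 replicate 1 or 3, BRSK2 replicate 2 or either Mock replicate, 2 without either hcRED replicate and 1 without BRSK2 replicate 3. Of 22 genes of the unfolded protein response 3 rose (HSP90B1, ERN1 and PDIA4), a count that was 1 without any BRSK1 replicate or hcRED replicate 1 and 0 without BRSK2 replicate 3 or either Mock replicate.

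Of 23 tested p53 targets 7 rose, against 4.57% of all genes, and 16 did not pass, with a median of 0.16. HEK293T cells carry SV40 large T antigen, which binds p53. BBC3 (PUMA), a pro-apoptotic BCL2 family member, lay between 27.1 and 43.1 CPM with the kinases against a narrow 19.1 to 20.3 in the controls (0.74 ± 0.11, adjusted p = 0.000412). The kinase PLK3 (0.93 ± 0.17) also rose in all alternatives. CDKN1A, the cyclin-dependent kinase inhibitor p21, rose by 0.41 ± 0.08, with its lowest kinase library (51.4 CPM) just under its highest control (52.3), and XPC, a DNA repair factor, by 0.34 ± 0.07. CDKN1A (0.124) and XPC (0.118) did not pass against hcRED alone, where 2 of the 23 were called higher. The median of hcRED against Mock was 0.13 in this list, and its part in the result was not tested.

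The BCL2 family had 5 of 17 tested genes higher, against 4.57% of all genes, and 12 that did not pass. Those higher were BMF, BBC3, BCL2L13 (0.37 ± 0.06, 87.0 to 104 CPM against 66.6 to 78.9) and HRK (0.47 ± 0.11), a pro-apoptotic member like BBC3. The anti-apoptotic BCL2L2 was higher as well. HRK did not pass without Mock replicate 2 (adjusted p = 0.0504) or against hcRED alone (0.105). The count was 3 without BRSK1 replicate 2 or 3, BRSK2 replicate 2 or 3 or Mock replicate 3, and 2 without Mock replicate 2 or against hcRED alone. In the cell cycle, 5 of 41 tested genes of G1 and S phase were called higher and 2 lower: E2F1, CDT1, CDC45, ORC1 and POLD1 rose, while CDC6 and GINS4 fell. CDT1 licenses replication origins. CDT1 lay between 316 and 421 CPM with the kinases against 208 and 245 in hcRED and 217 and 207 in Mock (0.74 ± 0.07, adjusted p = 2.47e-06), apart in every library and called in all alternatives. E2F1 lay between 133 and 186 CPM against 110 to 115 (0.46 ± 0.08) and did not pass against hcRED alone (0.0572). The 5 were 3 without BRSK2 replicate 2, hcRED replicate 1 or either Mock replicate and 2 without BRSK2 replicate 3. The 2 that fell became 1 without BRSK1 replicate 2. That count was 0 without BRSK1 replicate 1 or 3, BRSK2 replicate 2 or 3, hcRED replicate 1 or either Mock replicate. Of 39 G2 and M phase genes HMMR rose and TPX2 fell, a share below the background of 7.75%, and leaving out Mock replicate 2 ended both calls. TPX2 also did not pass without BRSK1 replicate 3, BRSK2 replicate 2 or 3, either hcRED replicate or Mock replicate 3, and 2 genes rose without BRSK2 replicate 1.

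Among 25 tested AMPK subunits, LKB1 partners and AMPK-related kinases 3 rose, against 4.57% of all genes. They were PRKAG1, NUAK1 and STRADA, the pseudokinase partner of LKB1. PRKAG1, a regulatory gamma subunit of AMPK, lay between 41.6 and 51.3 CPM with the kinases against 32.9 and 35.3 in hcRED and 38.9 and 37.3 in Mock (0.40 ± 0.07, adjusted p = 0.00138), in all alternatives. NUAK1, a close relative of the BRSK kinases, rose by 0.32 ± 0.08, though not against hcRED alone (0.238). STK11, which encodes LKB1, was at 0.07 ± 0.06 (adjusted p = 0.521). The count of 3 was 5 without BRSK2 replicate 1, 6 under library totals and 1 against hcRED alone. Of the transcripts used as markers of the line, VIM, the intermediate filament vimentin, rose from between 117 and 126 CPM to between 149 and 177 (0.43 ± 0.06, adjusted p = 0.000115), called in all alternatives. LIN28B fell by 0.21 ± 0.06, and did not pass without BRSK1 replicate 3, BRSK2 replicate 2 or 3, hcRED replicate 1 or either Mock replicate (0.0644 to 0.148), under library totals (0.0871) or against either control group alone (0.315 and 0.0632).

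Of 62 cytosolic ribosomal proteins 0 passed edgeR's test (1 higher and 1 lower at an unadjusted p under 0.05, and 0 by DESeq2), with values from -0.15 to 0.19; without BRSK2 replicate 1, 2 were called higher. Of 29 genes of MYC and ribosome biogenesis 1 rose, MXD3, an antagonist of MYC, from between 13.2 and 17.5 CPM to between 21.5 and 26.1 (0.64 ± 0.09, adjusted p = 0.000155, in all alternatives), and 2 fell (NOP58 and POLR1A). The 2 that fell were 0 without BRSK1 replicate 3, BRSK2 replicate 2 or 3 or either Mock replicate, and 1 without BRSK1 replicate 1 or 2 or either hcRED replicate. Of 37 translation factors 4 rose (EIF1, EIF3A, EIF4A2 and EIF4B) and EIF4EBP1 fell, where 4.57% of all genes were called higher. EIF4A2, an RNA helicase of initiation, stood at 0.70 ± 0.15 (adjusted p = 0.0262), EIF1, which guides start codon choice, at 0.42 ± 0.11 (0.0324), and EIF3A at 0.26 ± 0.06. EIF4A2 did not pass without BRSK1 replicate 3, and EIF1 not without BRSK1 replicate 2. Neither passed without BRSK2 replicate 2 or 3, hcRED replicate 1 or either Mock replicate (over these libraries 0.053 to 0.0756 for EIF4A2 and 0.0563 to 0.0851 for EIF1), or against hcRED alone (0.217 and 0.235). EIF4A2 (0.0899) and EIF3A (0.0964) did not pass against Mock alone. The 4 were 7 under library totals, 2 without BRSK1 replicate 2 or 3 and 1 without BRSK2 replicate 2 or 3, hcRED replicate 1 or either Mock replicate, or against either control group alone. EIF4EBP1 was the only 1 called lower, a count of 6 without BRSK2 replicate 1 and of 3 without hcRED replicate 3.

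The remaining lists held few calls, where 4.57% of all genes were called higher and 3.18% lower. Most of the calls in these lists depended on single libraries. In autophagy and lysosome MCOLN1 rose among 33 tested (0 without either Mock replicate, 2 or 3 without BRSK1 replicate 1, BRSK2 replicate 1 or hcRED replicate 3), and in cholesterol and fatty acid synthesis SREBF2 among 29 (0 without BRSK1 replicate 3, BRSK2 replicate 3, either hcRED replicate or Mock replicate 2, and 2 without BRSK2 replicate 1). Of 21 clock genes NR1D2 rose and DBP fell, neither without BRSK2 replicate 3 or Mock replicate 2. NR1D2 did not pass without hcRED replicate 3 either, nor DBP without BRSK1 replicate 2 or 3 or hcRED replicate 1, and 2 clock genes rose without BRSK2 replicate 1. Of 28 splicing factors CLK2 and RBM5 rose and HNRNPD and HNRNPU fell, with none in either direction without BRSK2 replicate 2, hcRED replicate 1 or Mock replicate 3. The splicing factors that rose were 6 without BRSK2 replicate 1, 4 without BRSK1 replicate 1 or hcRED replicate 3 and 1 without BRSK1 replicate 2, BRSK2 replicate 3 or Mock replicate 2. Those that fell were 1 without BRSK1 replicate 1 and 0 without BRSK1 replicate 3, BRSK2 replicate 3, hcRED replicate 3 or Mock replicate 2. Of 29 actin, adhesion and matrix genes PTK2B and TPM2 rose (1 without BRSK1 replicate 3, BRSK2 replicate 3, hcRED replicate 3 or Mock replicate 3). SNHG16 rose among 19 snoRNA hosts, whose median was 0.25 beside 0.17 for hcRED against Mock, a difference whose part in the result was not tested. The count of 1 was 8 without BRSK2 replicate 1, 3 without BRSK1 replicate 1, 2 without hcRED replicate 3 and 0 without BRSK1 replicate 2 or 3, BRSK2 replicate 3 or hcRED replicate 1. Among 17 interferon genes STAT2 rose (0.41 ± 0.09; 0.158 against hcRED alone). Of 15 replication-dependent histone genes 2 rose, HIST2H2BE and the linker histone HIST1H1E (1.18 ± 0.25; 0.0723 against hcRED alone), and 1 did without hcRED replicate 1 or Mock replicate 3.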

How the data were processed

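RNA from HEK293T cells was sequenced in 10 libraries, with cells grown in DMEM with FBS and RNA purified with a PureLink kit before an Illumina library protocol, per the labels. The authors deposited raw counts per gene in 2 tables, which were joined on the gene identifier; no control count differed between them. The submitters' processing notes name STAR, edgeR, limma and hg38, with no version. Which program counted the reads, with which annotation and strand setting, is not stated in the labels or files, so reads of overlapping or antisense genes cannot be told apart.

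From the counts, edgeR 4.0.16 (R 4.3.3) was run with BRSK1 and BRSK2 left out: filterByExpr with a minimum count of 10 and total of 15, TMM scaling and the robust quasi-likelihood F test, with Benjamini-Hochberg adjustment over 16134 genes and a threshold of 0.05. Each gene named in the text carries the log2 fold change with a standard error obtained by dividing its size by the root of the F statistic. The 6 kinase against 4 control libraries were fitted as 2 arms, with 8 residual degrees of freedom and a biological coefficient of variation of 8.92%. Each kinase, BRSK2 against BRSK1 and hcRED against Mock came from a fit with 4 group means and 6 residual degrees of freedom. DESeq2 1.42.0 and limma 3.58.1 served as alternatives, beside other scalings, filters and left-out libraries. A correction for GC content per library (lowess, span 0.3) was chosen after seeing the data. Counts were also simulated with every library at the mean of the controls, without differences between the kinases or between the control groups. Only genes of at least 5 CPM were changed. The test called 95% of genes given a log2 change of 0.5 and 97% of genes given 1. It also called 9 genes given no change. Smaller changes were not simulated, while the median size of the changes called in the data was 0.323.

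The comparison, the gene lists and the alternatives were chosen with earlier results of these data known. Genes named in the text were the 12 highest and 12 lowest by the smaller of the kinases' own changes, called, fully apart and with a mean of at least 5 CPM; the NRF2 targets; up to 4 genes of the smallest p in each other list; and the 6 of smallest p for BRSK2 against BRSK1. Outside that rule, and chosen after their values were seen, were TUBB, TUBB6, TUBA1C, RELB, PKM, SLC2A1, FOS, EGR1, JUNB, MAPT, DDIT3, ATF4, STK11, NFE2L2, KEAP1, CTGF, and the counted genes BMF, CDC45, CDC6, EIF4EBP1, GINS4, NDUFS5, PFKM, PSAT1, PSMC4, PSMD4 and SLC1A5. Library depth limits precision for genes under a few CPM, where counting error adds to the spread between libraries. Promoter windows and their letters came from RefSeq (GRCh38.p14), which gave one for 94 of the 112 genes whose values are described.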

Additional observations from a re-analysis of the deposited data

Results flagged for a closer look

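In the 224 groups of 4 control or 6 kinase libraries examined for the named genes, 5 had a single library far from the rest by Dixon's 95% critical value, which chance alone reaches in about 1 group in 20. FTL was at 389 CPM in Mock replicate 2, the highest control. SLC2A1 was at 78.1 CPM and UQCR11 at 19.6 CPM in hcRED replicate 3, each the lowest control. ZFP36L1 was at 48.3 CPM in BRSK1 replicate 1, the lowest kinase library, and NDUFB7 at 68.3 CPM in BRSK1 replicate 2, the highest.

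The kinases differed by an edgeR test of the difference itself in 9 of the named genes, all higher with BRSK2. SOCS3 differed by 1.67 (adjusted p = 0.00175), JUNB by 0.937 (0.00053), RELB by 0.748 (0.0492), WNT9A by 0.737 (0.0232) and DUSP1 by 0.638 (0.00175), all on the log2 scale. ZNF581 differed by 0.393 (0.041), GRAMD1A by 0.36 (0.0363), E2F1 by 0.341 (0.0232) and CELSR3 by 0.314 (0.0363). SOCS3 and JUNB were not called for the kinases together.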

How the results depend on the processing

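Over 112 genes whose values are described, 99 were called. Of these, 35 were called the same way under every alternative that could be fitted for the gene, of up to 24, 64 lost the call under at least 1, and none was called in the opposite direction. Against hcRED alone 52 were lost, and against Mock alone 24. Genes named only as members of a count are not in this tally. The 1251 calls became 357 at an adjusted p under 0.01, 216 against hcRED alone, and 630 to 1927 with single libraries left out. Library totals alone gave 1318, of which 80.3% were higher, against 59.0% with TMM. DESeq2 gave 1629, limma-voom 1139, the fit with 4 group means 1852 and removal of the GC trend 1570. The 55 genes that differed between BRSK2 and BRSK1 became 183 with no filter, 153 by DESeq2 and 4 to 54 with single libraries left out. The 5 that differed between hcRED and Mock became 132 with no filter, 36 by DESeq2 and 0 to 52 with single libraries left out. Leaving out a control leaves an arm of that last comparison with 1 library, which is then assumed to vary like the other groups. The cause of these shifts was not tested.

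Some genes near 0 changed sign without passing. With single libraries left out HMOX1 ranged from -0.12 to 0.0294, FOS from -0.0385 to 0.27, MAPT from -0.12 to 0.0023 and NFE2L2 from -0.0441 to 0.14. Against Mock alone HMOX1 was at 0.0545 and FOS at -0.14, and against hcRED alone MAPT was at 0.067 and NFE2L2 at -0.14. KEAP1 was at 0.0077 under library totals alone.

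The deviations of same-numbered libraries had correlations from -0.0644 to 0.173, and those of differently numbered libraries from -0.161 to 0.131. These values cannot tell whether the numbers pair the libraries. Without a block, 1251 genes were called for the kinases against the controls and 55 for BRSK2 against BRSK1. With the replicate number as a block, the calls were 1216 for the kinases against the controls and 284 for BRSK2 against BRSK1; DUSP1 was the 1 gene of the 112 to lose its call (adjusted p = 0.0596), and the lists' counts also moved, with the proteasome's 1 higher gene becoming 0 and the 2 higher glycolysis genes 1.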
